A study of Mus musculus with 3 samples.

Results

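Cartilage is built in layers, and each layer secretes its own mix of matrix proteins. The genes followed here are 10 such proteins, Acan, Hapln1, Matn1, Matn3, Matn4, Cnmd, Prg4, Cilp, Cilp2 and Msmp, taken by gene symbol from the 32285 genes of the deposited count tables. Each symbol matched 1 gene, and all 10 are annotated as protein-coding genes in GRCm38 (mm10). The levels of these genes were described in every cell population of the sorted cells, library by library.

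The cells were bone-lining cells (BLCs), which coat the inner surface of bone. They were freed with collagenase from femora, tibias and iliac bones whose marrow had been flushed out, of wild-type (WT) mice, and sorted as Alcam+Sca-1- cells after exclusion of CD45+, Ter119+ and CD31+ cells. The 3 libraries form 1 group, Alcam_BLC, with replicates 1, 2 and 3, and were made with a droplet-based kit that counts unique molecular identifiers (UMIs) at the 3′ end of transcripts. The labels give the genotype as WT and the tissue as bone marrow, and give no age, strain, treatment, batch or number of pooled animals. There was no second group, so populations were compared with each other inside these libraries. The p-values measure only how far differences between populations varied among these libraries, after a term for library.

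Aggrecan, the product of Acan, carries many chondroitin sulphate chains and holds water in cartilage. It is anchored to hyaluronan by the link protein Hapln1. Matrilins (Matn1, Matn3 and Matn4) bridge collagen fibrils and proteoglycans, and chondromodulin (Cnmd) is a cartilage glycoprotein that inhibits blood vessel growth. Lubricin (Prg4) lubricates the joint surface, Cilp and Cilp2 are proteins found between the cells of articular and meniscal cartilage, and Msmp encodes a small secreted protein. The growth plate, a layered cartilage that lengthens bone, and the surface zone of articular cartilage are therefore known for different members of this set.

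The upstream sequences of 4 members are printed because much of what follows turns on them: Matn1 and Matn3 from the aggrecan side, highest in growth plate-type or cycling cells, and Cilp and Msmp from the lubricin side, high in superficial-type cells. Each is the 250 bases before the RefSeq start (GRCm38.p6), written 5′ to 3′ along the gene's own strand, with capitals marking every GC box (GGGCGG or its reverse complement CCGCCC). The regions are chr4:130944135-130944384, plus strand for Matn1, chr12:8947679-8947928, plus strand for Matn3, chr9:65264930-65265179, plus strand for Cilp and chr4:43584495-43584744, minus strand for Msmp.
Matn1: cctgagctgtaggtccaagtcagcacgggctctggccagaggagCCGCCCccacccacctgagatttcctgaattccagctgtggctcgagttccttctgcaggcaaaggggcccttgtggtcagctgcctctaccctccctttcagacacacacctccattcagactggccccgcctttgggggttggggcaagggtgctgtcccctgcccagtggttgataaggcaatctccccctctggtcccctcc
Matn3: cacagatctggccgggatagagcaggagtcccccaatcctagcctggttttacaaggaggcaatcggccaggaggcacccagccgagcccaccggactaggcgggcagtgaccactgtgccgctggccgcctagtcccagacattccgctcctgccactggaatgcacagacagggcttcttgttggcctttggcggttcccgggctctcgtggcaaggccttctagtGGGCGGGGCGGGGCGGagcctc
Cilp: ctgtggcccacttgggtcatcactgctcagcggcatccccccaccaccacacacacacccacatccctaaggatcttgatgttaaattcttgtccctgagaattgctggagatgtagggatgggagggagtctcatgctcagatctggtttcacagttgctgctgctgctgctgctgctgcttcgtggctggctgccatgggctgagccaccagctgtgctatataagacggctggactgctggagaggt
Msmp: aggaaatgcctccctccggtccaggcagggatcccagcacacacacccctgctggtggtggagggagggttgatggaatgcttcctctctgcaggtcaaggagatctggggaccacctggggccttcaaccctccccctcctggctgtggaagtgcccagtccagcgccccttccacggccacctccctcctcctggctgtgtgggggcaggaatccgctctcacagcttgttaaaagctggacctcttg
The GC box of Matn1 began 206 bases before the start, and the 3 overlapping boxes of Matn3 began 22, 17 and 12 bases before it.

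RefSeq gave upstream sequence for 9 of the 10 members, all but Prg4. A GC box (GGGCGG on either strand) was present in 5 of the 9, namely Acan, Cilp2, Matn1, Matn3 and Matn4, and in 32.7% of 32851 mouse upstream windows of the same length. The member share is by gene and the other by single window: Matn4 had 2 windows, 1 of them with a GC box, so 5 of the members' 10 windows held one. The SOX-type words ACAAAG and ACAATG and the TATA box word TATAAA, searched on both strands, were present in 0 of the 9 members and in 16.5%, 10.7% and 12.4% of all windows. Only these exact words were searched, so close variants are not counted. The printed Cilp sequence holds such a TATA-like stretch, tatataag, near its end. The GC box was chosen for printing after the other 3 words had given no match. It did not follow the aggrecan and lubricin sides as in the 4 printed sequences: Cilp2 held it, and Hapln1 and Cnmd did not.

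18232 cells were analysed, 2476, 6363 and 9393 from replicates 1, 2 and 3, at a median depth of 5614, 9704 and 5814 UMIs per cell. Replicate 1 stood apart. Cells with cartilage markers were 15.3% of it (378 cells), against 80.3% of replicate 2 (5109 cells) and 80.1% of replicate 3 (7526 cells), so results on cartilage cells rest mostly on replicates 2 and 3. Sox9, the transcription factor that defines cartilage cells, was at 1407, 1379 and 1573 CPM (scaled counts, explained next) in the cartilage cells and at 14.3, 48.8 and 65.8 CPM in haematopoietic cells. Col2a1, the main cartilage collagen gene, was at 2378, 31324 and 26299 CPM in the cartilage cells, lowest in replicate 1. Ptprc, which encodes CD45, was at 0 to 0.097 CPM in the cartilage cells, whereas 574, 210 and 348 cells had haematopoietic markers despite the sort. Alcam itself was at 41.0, 12.4 and 11.8 CPM in the cartilage cells. The 3 pairs of libraries shared 5, 9 and 28 barcodes.

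Levels are in CPM, which is a gene's UMI count divided by the population's total and scaled to a fixed sum. UMIs counted at the 3′ end are not scaled by transcript length, so levels are compared between cell populations and not between genes. The haematopoietic cells should lack all 10 proteins, and their level serves as the background that free RNA in the droplets can give. A level needs at least 20 cells of a population in a library. The growth plate-type state had 4, 1100 and 1295 cells and the cycling state 0, 152 and 118 cells in replicates 1, 2 and 3, so both have values from replicates 2 and 3 only.

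The cartilage cells fell into 6 states that were found without the 10 genes, and 3 small unnamed clusters. The growth plate-type state was led by C1qtnf3, Epyc and Prkg2, and the cycling state by cell division genes (Mki67 and Top2a). The Lef1 state was marked by Lef1 and Sfrp5, and the superficial-type state by Igfbp5, Gas1, Htra4 and Clu. The other two went against the marker lists closest to them and are called by their leading genes. The Ibsp-led state (Ibsp, Col1a1, Spp1) was nearest to a hypertrophic list, but Col10a1, the defining hypertrophic collagen, was at 442 ± 171 CPM in it and at 647 ± 150 CPM in the Slurp1-led state (SD, n = 3 libraries each). The Slurp1-led state (Slurp1, Dhrs9, Chrdl2) was nearest to a list of Wif1, Cytl1 and Myoc, none of which was among its leading genes. A further cluster of 721 cells led by Clu, Serpina1e and Nos2, the Nos2 Clu-led cluster, passed the limits of neither cartilage nor any other class.

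**Figure D1:**
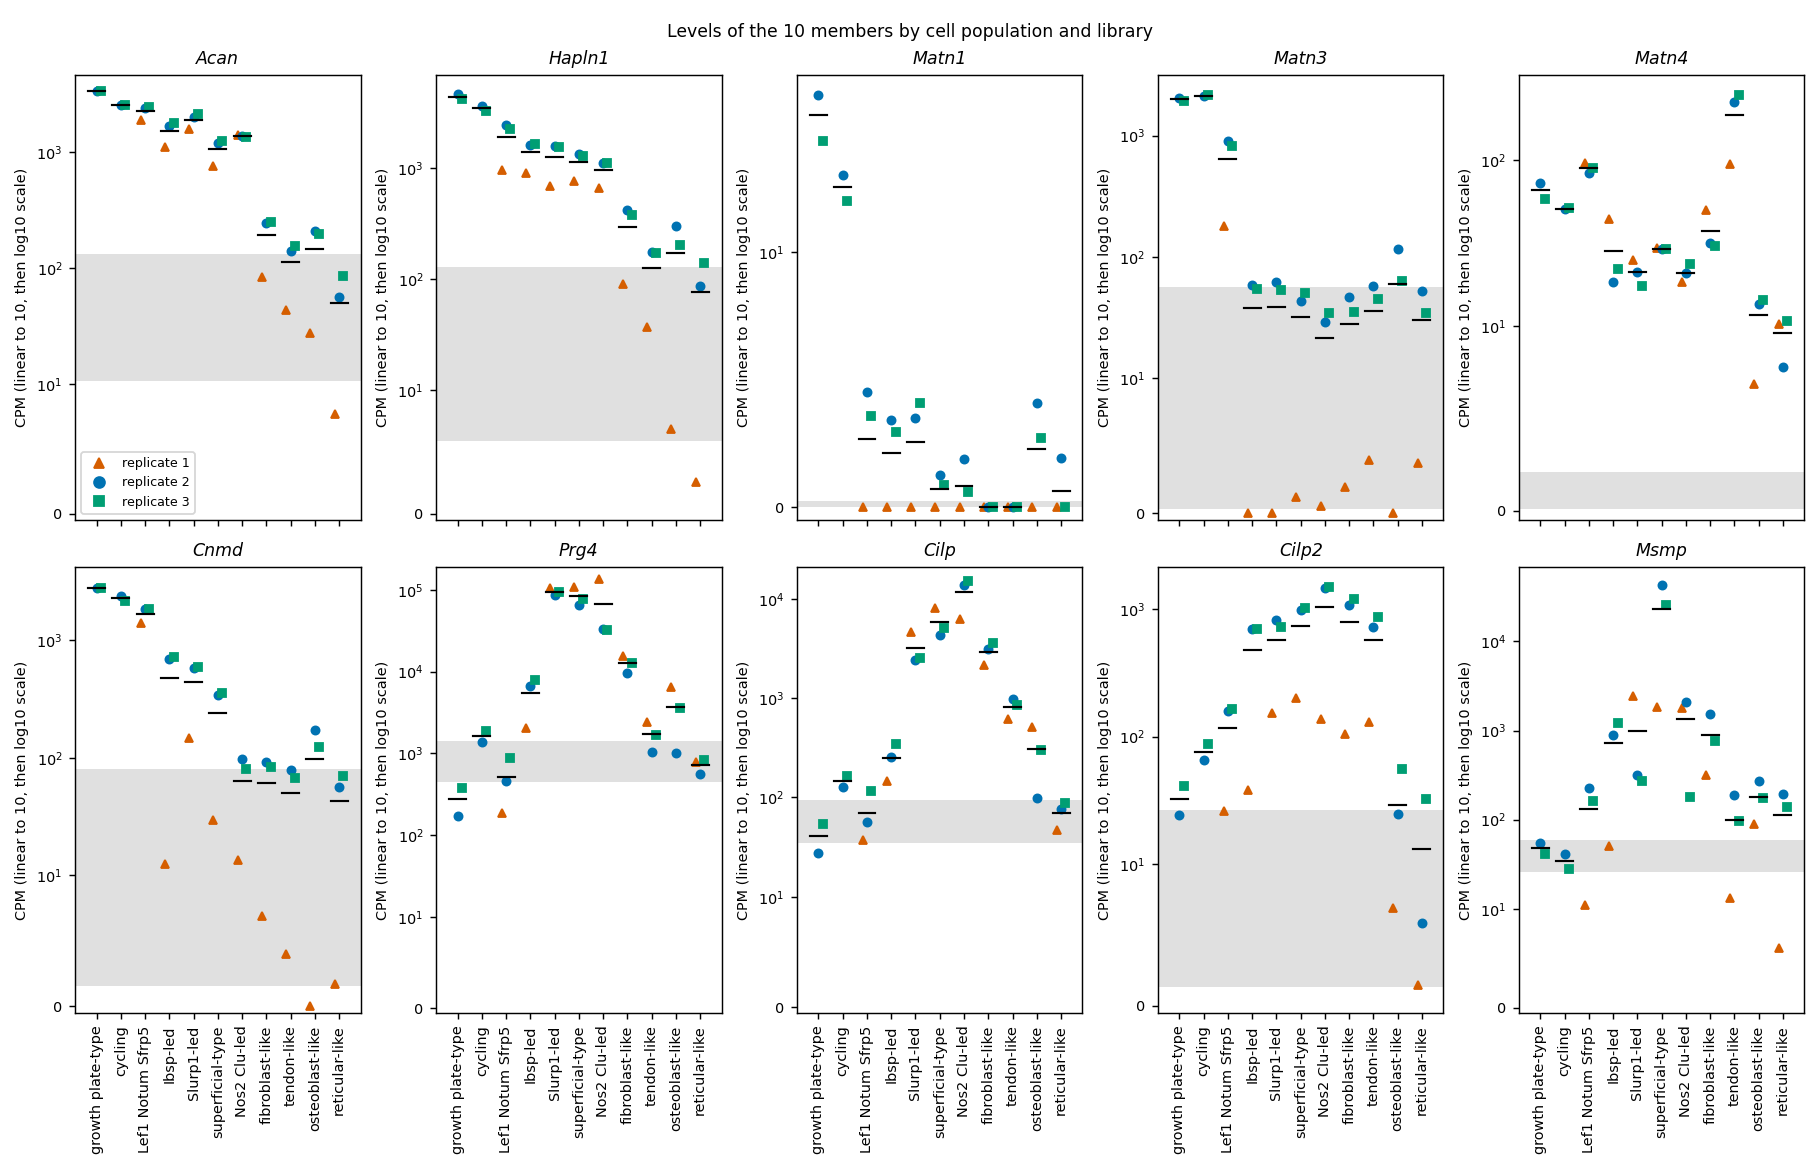
Level of each of the 10 genes in 11 cell populations, in CPM on an axis that is linear to 10 and logarithmic above; each point is 1 library, the bar is the mean over libraries, and the grey band spans the haematopoietic cells of the 3 libraries. Acan, Hapln1, Matn1, Matn3 and Cnmd are highest on the left (growth plate-type and cycling), and Prg4, Cilp, Cilp2 and Msmp are highest in the middle (Slurp1-led, superficial-type and Nos2 Clu-led); growth plate-type and cycling cells have no point from replicate 1.

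Most of the genes fell on an aggrecan side or a lubricin side, while Matn4 had its highest mean in tendon-like cells. Together the 10 genes took 2.26%, 2.88% and 3.41% of all UMIs of replicates 1, 2 and 3. In the superficial-type state they took 11.9%, 11.6% and 11.2%, most of it Prg4, with Msmp at 4.27% in replicate 2. The share was similar in the Slurp1-led state, at 11.4%, 9.41% and 10.0%. In the Nos2 Clu-led cluster the 10 genes took 14.5%, 5.33% and 5.18%. In the growth plate-type state they took 1.32% and 1.28%, of which Prg4 and Msmp together made up very little: the other 8 genes took 1.30% and 1.24%. The share in superficial-type cells was thus larger in each library with a value for both.

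Acan (chr7:79053483-79115099, plus strand) was found in 77.9% of the analysed cells. In growth plate-type cells its level was 3366 CPM in replicate 2 and 3316 CPM in replicate 3. In the Lef1 state it was 1877, 2408 and 2457 CPM, and in superficial-type cells 752, 1185 and 1239 CPM. Every cartilage state lay above the haematopoietic cells, which had 10.8, 87.9 and 133 CPM. Among the 6 states the order of the means was growth plate-type (3341 CPM ± 35.4, SD, n = 2), cycling (2530 ± 18.1, n = 2), Lef1 (2247 ± 322, n = 3), Slurp1-led (1896 ± 296, n = 3), Ibsp-led (1516 ± 359, n = 3) and superficial-type (1059 ± 267, n = 3). The ranges of neighbours in this order overlapped from Lef1 downwards and not above it. Within each library the states with a value kept this same order. The highest Acan level of any population, between 4331 and 4488 CPM in replicates 2 and 3, was in an unnamed shallow cartilage cluster (462 cells) that also had the highest median share of mitochondrial UMIs among the cartilage clusters.

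The link protein gene Hapln1 (chr13:89539796-89611652, plus strand) followed Acan. It was at 4663 and 4164 CPM in growth plate-type cells, at 3656 and 3271 CPM in cycling cells and at 772, 1332 and 1290 CPM in superficial-type cells, against 5.95, 95.8 and 129 CPM in haematopoietic cells. In replicate 1 the Lef1 state had 965 CPM, below the 2453 and 2261 CPM of replicates 2 and 3. In cells thinned to 1000 UMIs, which makes shares comparable across depths, a Hapln1 UMI was found in 97.5% and 94.6% of growth plate-type cells, in 46.7% to 69.0% of superficial-type cells and in 0.579% to 9.66% of haematopoietic cells. The opposite-strand gene Gm8546 lies within Hapln1, and the kit keeps strand.

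The matrilins differed among themselves. Matn1 (chr4:130944385-130955475, plus strand), a matrilin of growth plate and other non-articular cartilage, was rare: 1904 UMIs in all, in 4.10% of cells, and 0 UMIs in replicate 1. Of these UMIs, 82.1% in replicate 2 and 75.1% in replicate 3 were in growth plate-type cells, where the level was 48.0 and 30.4 CPM. Cycling cells had 21.6 and 16.7 CPM, and no other named population passed 5 CPM. After thinning, 4.55% and 2.40% of growth plate-type cells held a Matn1 UMI, so most cells of that state showed none at this depth.

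Matn3 (chr12:8947929-8972028, plus strand), whose mutations cause skeletal dysplasia in humans, was shared by 3 states. It was at 2049 and 1947 CPM in growth plate-type cells, at 2128 and 2145 CPM in cycling cells, and at 182, 905 and 827 CPM in the Lef1 state. In Ibsp-led, Slurp1-led and superficial-type cells it was at or near the haematopoietic level of 0.324, 47.3 and 56.8 CPM, for example 1.18, 43.7 and 50.9 CPM in superficial-type cells. These ranges overlapped that of the haematopoietic cells. Thinned cells gave the same split: 82.2% and 77.3% of growth plate-type cells held a Matn3 UMI, against 0%, 5.08% and 4.74% of superficial-type cells and 0.193%, 2.01% and 4.36% of haematopoietic cells. The 0 of replicate 1 came from 169 superficial-type cells, which allows up to 2.16% (exact binomial, counting error only).

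Matn4 (chr2:164389393-164405160, minus strand), a matrilin found also outside cartilage, had its highest mean in tendon-like cells. Tendon-like cells had 94.4, 223 and 246 CPM, the Lef1 state 96.5, 83.8 and 89.8 CPM, and growth plate-type cells 73.2 and 58.7 CPM. The ranges of tendon-like cells and the Lef1 state overlapped through replicate 1, and tendon-like cells were higher in replicates 2 and 3. Among tendon-like cells, the cluster led by Aspn and Mmp13 had 78.3, 336 and 329 CPM. The cluster led by Tnmd and Postn had 140, 101 and 90.6 CPM. At a clustering resolution of 1, a Lef1-type cluster of 953 cells (21 in replicate 1) had 186, 183 and 156 CPM, above the Tnmd-led cluster in each library. Superficial-type cells had 29.6, 29.2 and 29.3 CPM, and haematopoietic cells had 0.108 to 2.09 CPM. Within the Lef1 state the 10% of cells richest in Matn4 held 65.5% of its UMIs. The gene overlaps Rbpjl on the opposite strand.

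Cnmd (chr14:79637690-79662170, minus strand) was at 2769 and 2768 CPM in growth plate-type cells, at 2364 and 2168 CPM in cycling cells and at 1391, 1827 and 1828 CPM in the Lef1 state. It was lower in superficial-type cells, at 29.6, 344 and 353 CPM. In replicates 2 and 3 these values were above the 68.9 and 81.1 CPM of haematopoietic cells, and in replicate 1 they were 29.6 against 1.51 CPM. The Ibsp-led state spread from 12.6 CPM in replicate 1 (41 cells) to 695 and 713 CPM in replicates 2 and 3.

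Prg4 (chr1:150449412-150466165, minus strand) was the most counted member, with 2894107 UMIs. It was at 104636, 86309 and 92493 CPM in Slurp1-led cells, and at 107398, 65494 and 77511 CPM in superficial-type cells. The Nos2 Clu-led cluster had 135106 CPM in replicate 1 and 33344 and 32292 CPM in replicates 2 and 3. Fibroblast-like cells had 15333, 9666 and 12796 CPM. Growth plate-type cells had 172 and 379 CPM, below the 447 and 1402 CPM of the haematopoietic cells of the same libraries. A Prg4 UMI was found in 17.4%, 23.1% and 35.2% of thinned haematopoietic cells and in 14.2% and 25.2% of thinned growth plate-type cells, but in 99.4%, 97.3% and 98.9% of superficial-type cells. The share of growth plate-type cells with a Prg4 UMI was thus not above that of haematopoietic cells.

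Lubricin varied widely from cell to cell. In superficial-type cells the middle 80% of cells ran from 4490 to 196708 CPM with a median of 34234 CPM, and in the Slurp1-led state from 3350 to 197349 CPM with a median of 43336 CPM. In cycling cells the richest 10% of cells held 89.8% of the Prg4 UMIs.

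Cilp (chr9:65265180-65280605, plus strand), named for the intermediate layer of cartilage, was highest in the Nos2 Clu-led cluster, with 6295, 13788 and 15194 CPM. Superficial-type cells had 8031, 4305 and 5129 CPM, Slurp1-led cells 4638, 2411 and 2512 CPM, and fibroblast-like cells 2178, 3101 and 3560 CPM. Replicate 1 was the lowest library in the first and last of these and the highest in the other two. Growth plate-type cells (27.9 and 53.9 CPM) were not above haematopoietic cells (49.6, 35.1 and 95.1 CPM).

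Cilp2 (chr8:69880369-69887687, minus strand), its close relative, reached further into other populations. It was at 137, 1470 and 1489 CPM in the Nos2 Clu-led cluster, at 105, 1085 and 1211 CPM in fibroblast-like cells, at 201, 984 and 1023 CPM in superficial-type cells and at 129, 728 and 867 CPM in tendon-like cells. All of these were lower in replicate 1. The ranges of neighbouring populations overlapped from the Nos2 Clu-led cluster down to the Lef1 state (26.0, 159 and 165 CPM) and cycling cells (66.0 and 86.9 CPM). Within each library the Nos2 Clu-led cluster was above fibroblast-like cells, and superficial-type cells were above both in replicate 1 only. The Ibsp-led state, where Cilp was at 145, 254 and 349 CPM, had 37.8, 705 and 697 CPM of Cilp2, close to its level in Slurp1-led cells in replicates 2 and 3. Haematopoietic cells had 1.30, 18.3 and 26.3 CPM. Cells of the superficial-type state with a Cilp UMI after thinning held a Cilp2 UMI in 64.0% of cases in each of replicates 2 and 3, against 44.4% and 50.2% of the cells without one, whereas in replicate 1 the shares were 17.4% and 21.4%.

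Msmp (chr4:43583216-43584494, minus strand) was the most concentrated. Superficial-type cells had 1828, 42727 and 25547 CPM, and the highest value in another population was 2421 CPM, in Slurp1-led cells of replicate 1. In replicates 2 and 3 these cells held 93.6% and 90.9% of the Msmp UMIs. In replicate 1 they held 24.8%, and the Nos2 Clu-led cluster held 55.5%. Growth plate-type cells (54.4 and 41.6 CPM) were at the haematopoietic level (25.7, 53.9 and 58.9 CPM). The mean over libraries in superficial-type cells, 23367 CPM ± 20537 (SD, n = 3), describes none of the 3 libraries well.

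**Figure D2:**
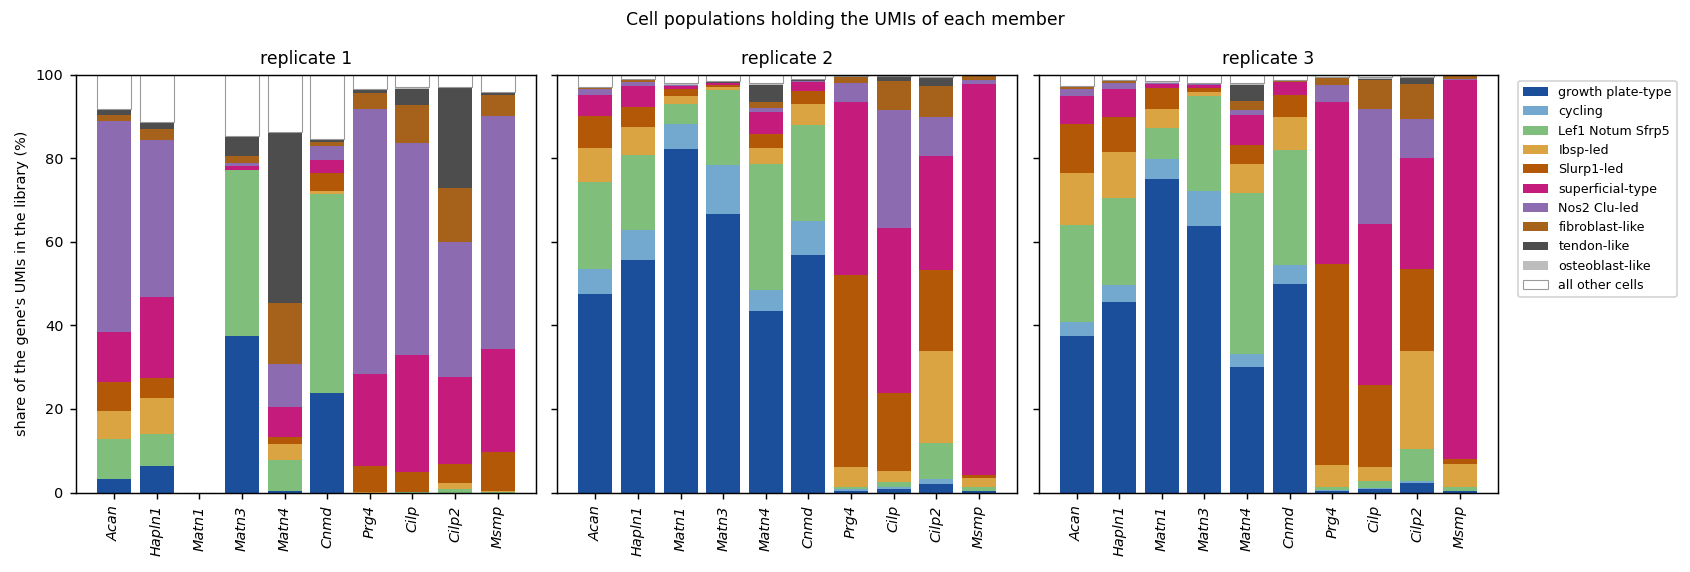
Share of each gene's UMIs, in percent, that lay in each cell population, with 1 panel per library and 1 stacked bar per gene; Matn1 has no bar in replicate 1, where it had 0 UMIs. In replicates 2 and 3, Matn1 lies mostly in growth plate-type cells (82.1% and 75.1%) and Msmp mostly in superficial-type cells (93.6% and 90.9%), while in replicate 1 the Nos2 Clu-led cluster holds 55.5% of Msmp.

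A few cells carried nearly all of the Msmp. Cells in which Msmp made up at least 10% of all UMIs numbered 0, 41 and 42 in replicates 1, 2 and 3, and 37 and 40 of those in replicates 2 and 3 were superficial-type cells. These 41 and 42 cells held 92.1% and 89.2% of the Msmp UMIs of their libraries. The highest share in a single cell was 68.9%. In superficial-type cells under 0.1% Msmp, 692 and 1181 cells in replicates 2 and 3, Prg4 took a median of 3.76% and 4.31% of the other UMIs. In the 37 and 40 cells at or over 10% Msmp it took 0.597% and 0.593%, so these cells were lower in Prg4 in both libraries where they occurred, also after the Msmp UMIs were left out of the total. Their median depth was 16215 and 8092 UMIs, against 8201 and 4862 UMIs in the cells under 0.1%; the part of depth in this difference was not tested. The limits of 0.1% and 10% were chosen after the values were seen. At a clustering resolution of 1, superficial-type cells lay in separate clusters. One of 426 cells, led by Msmp and Igfbp5, had 205098 and 152322 CPM of Msmp and 16203 and 19321 CPM of Prg4 in replicates 2 and 3. Another of 1017 cells, led by Gas1 and Cilp, had 651 and 466 CPM of Msmp and 98016 and 117470 CPM of Prg4.

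**Figure D3:**
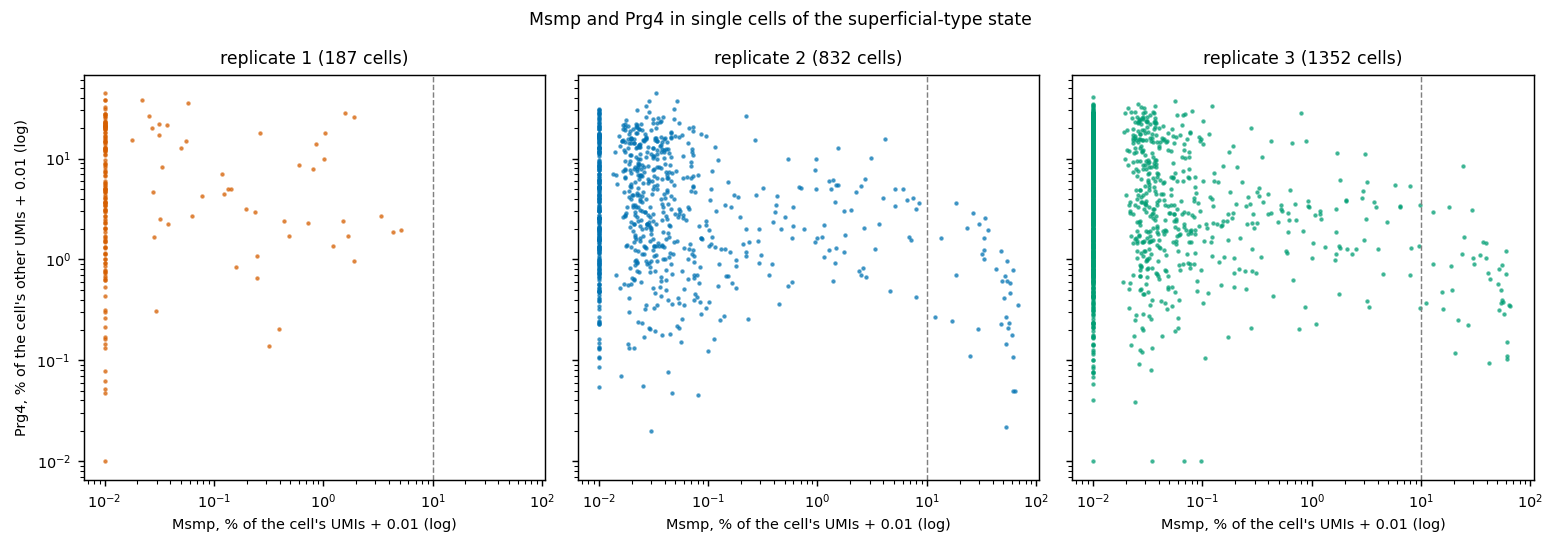
Single superficial-type cells by the share of their UMIs from Msmp (x, percent plus 0.01, log scale) and the share of their remaining UMIs from Prg4 (y, percent plus 0.01, log scale), 1 panel per library, with the dashed line at 10% Msmp. The 37 cells of replicate 2 and 40 cells of replicate 3 right of the line lie low on the Prg4 axis (medians 0.597% and 0.593%), and replicate 1 has no cell there.

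The state-by-state differences were fitted in edgeR (quasi-likelihood test on UMIs summed per state and library, library as a term), with the growth plate-type state as the reference and p-values adjusted by Benjamini-Hochberg over all 16954 genes tested. Every comparison with the reference had both states in 2 libraries only, since the reference has no value from replicate 1. All 10 members passed the filter on low counts in this fit. Since states were drawn from other genes of the same cells, the tests describe how far these states lie apart in these libraries. Scaling mattered for the balance of all calls. With RLE scaling in place of TMM, the median log2 fold change of all genes moved from -0.03 to 0.22 in superficial-type cells, from -0.09 to 0.07 in Slurp1-led, from -0.06 to 0.08 in Ibsp-led, from 0.02 to 0.20 in Lef1 and from -0.10 to 0.07 in cycling cells. No call of a member changed its direction with it.

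In superficial-type cells Prg4, Cilp, Cilp2 and Msmp were higher and the other 6 were lower. Among all genes tested, 28.1% were higher and 30.7% lower in this comparison, so that 47.8% of the calls were higher (61.1% with RLE scaling). Msmp differed by a log2 fold change of 8.97 ± 1.11 (SE; adjusted p = 1.07e-08), Prg4 by 8.62 ± 0.65 (4.23e-14), Cilp by 7.16 ± 0.48 (1.55e-15) and Cilp2 by 5.10 ± 0.29 (1.76e-17). Matn3 fell by 5.45 ± 0.27 and Matn1 by 5.15 ± 0.25 on the log2 scale, Cnmd by 3.19 ± 0.39, Hapln1 by 1.60 ± 0.21, Acan by 1.45 ± 0.22 and Matn4 by 1.19 ± 0.13. Without replicate 2, Matn4 no longer passed the test (log2 fold change -0.96, adjusted p = 0.0619). The median of the members was a log2 fold change of -1.32, and that of all genes -0.03.

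The Slurp1-led state had the same directions, with 9 of 10 members passing, against 22.9% of all genes higher and 27.8% lower (45.2% of the calls higher, and 55.9% with RLE scaling). Prg4 was higher by 8.87 ± 0.65 on the log2 scale, Cilp by 6.40 ± 0.46, Msmp by 5.61 ± 1.09 and Cilp2 by 4.83 ± 0.29. Matn3 fell by 4.96 ± 0.27, Matn1 by 3.14 ± 0.20, Cnmd by 2.04 ± 0.39, Matn4 by 1.59 ± 0.14 and Hapln1 by 1.36 ± 0.21. Acan, at -0.46 ± 0.23, did not pass (adjusted p = 0.0851), and passed without replicate 1 (-0.30, adjusted p = 0.0154). Without replicate 2 or without replicate 3, Hapln1 (adjusted p = 0.0538 and 0.0587) and Cnmd (0.133 and 0.187) no longer passed. Msmp in this state was at 2421 CPM in replicate 1 and at 317 and 269 CPM in replicates 2 and 3.

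In the Ibsp-led state all 10 passed, with the same 4 higher, against 22.5% of all genes higher and 27.3% lower. Prg4 was higher by 4.62 ± 0.53 on the log2 scale, Cilp2 by 4.46 ± 0.28, Msmp by 4.30 ± 0.89 and Cilp by 2.84 ± 0.38. Much of the Msmp value came from few cells, since 1 of 771 cells held 28.5% of the state's Msmp UMIs in replicate 2 and 2 of 1381 cells held 65.0% in replicate 3. Matn3 fell by 4.99 ± 0.27, Matn1 by 3.42 ± 0.19, Cnmd by 2.09 ± 0.37, Matn4 by 1.48 ± 0.13, Hapln1 by 1.24 ± 0.21 and Acan by 0.85 ± 0.22. The lower calls for Acan and Hapln1 were lost without replicate 2 (adjusted p = 0.304 and 0.112) and without replicate 3 (0.304 and 0.0876). Matn4 was lost without replicate 2 (0.0818) and Msmp without replicate 3 (0.0573). When the members and their relatives were allowed to shape the clusters, 6 of the 10 passed in the state then nearest to the hypertrophic list. Cilp (-1.41, adjusted p = 0.240) and Msmp (-0.23, 0.890) were no longer higher there. That state can hold other cells than the Ibsp-led state, and the share of all genes called in that fit is not given.

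In the Lef1 state 6 members passed, 2 higher and 4 lower (4 higher and 3 lower with RLE scaling), against 25.5% of all genes higher and 23.8% lower (51.8% of the calls higher, and 66.5% with RLE scaling). Cilp2 was higher by 2.22 ± 0.26 and Matn4 by 0.27 ± 0.11 on the log2 scale. Matn1 fell by 3.38 ± 0.16, Matn3 by 1.21 ± 0.24, Hapln1 by 1.13 ± 0.21 and Acan by 0.56 ± 0.22. Cnmd was at -0.06 ± 0.41, Cilp at 0.80 ± 0.36, Prg4 at 0.92 ± 0.44 and Msmp at 1.70 ± 0.80, none of which passed. With RLE scaling Cilp (adjusted p = 0.0207) and Prg4 (0.0362) passed and Acan did not (0.178). The call for Matn4 was lost at a clustering resolution of 1 (0.0539), with no filter on low counts (0.130) and without the library term (0.187), and that for Cilp2 without the library term (0.0733). The count changed with the libraries used, and 10 members passed without replicate 1. The share of all genes called in that fit is not given, so the count is no result about the members. Without replicate 2 or replicate 3 the reference has 1 library left. Without the library term 3 passed, and under DESeq2 4 passed, without Acan (adjusted p = 0.125) and Matn3 (0.0537).

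In cycling cells, which like the reference had no replicate 1, 5 members passed, against 12% of all genes higher and 14.9% lower (44.6% of the calls higher, and 64.8% with RLE scaling). Prg4 (2.39 ± 0.49 on the log2 scale), Cilp (1.66 ± 0.39) and Cilp2 (1.01 ± 0.27) were higher, Matn1 fell by 1.26 ± 0.18 and Matn4 by 0.60 ± 0.14. For Prg4 this is a difference between 1384 and 1888 CPM in cycling cells and 172 and 379 CPM in the reference, with haematopoietic cells of the same libraries at 447 and 1402 CPM. Cycling cells were above the haematopoietic cells in both libraries, and the reference was below them. Acan (-0.62 ± 0.24, adjusted p = 0.0523), Hapln1 (-0.57 ± 0.23, 0.0590), Matn3 (-0.13 ± 0.23), Cnmd (-0.51 ± 0.40) and Msmp (-0.71 ± 0.89) did not pass. Prg4, Cilp and Cilp2 no longer passed when doublets were kept (log2 fold changes 0.67, 0.55 and 0.25). Without replicate 1, whose other states also feed the spread, 8 passed, and the share of all genes called in that fit is not given. Leaving out replicate 2 or replicate 3 leaves 1 library of each of these 2 states.

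**Figure D4:**
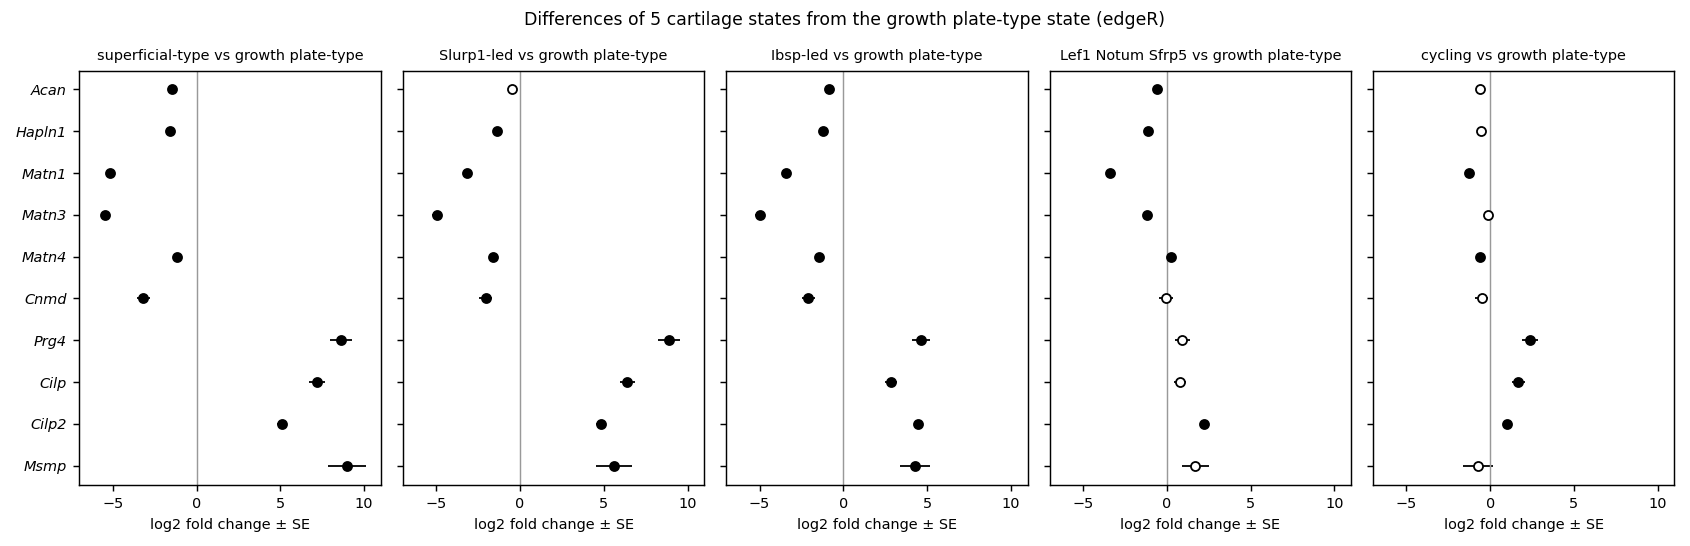
Log2 fold change of each gene in 5 cartilage states against the growth plate-type state, with bars of 1 SE from edgeR; filled points passed an adjusted p of 0.05 and open points did not. Prg4, Cilp, Cilp2 and Msmp lie right of 0 in the superficial-type, Slurp1-led and Ibsp-led panels, where the other 6 lie left of it; in the Lef1 and cycling panels all points but Matn1 in the Lef1 panel lie within 2.39 of 0.

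Against the other mesenchymal cells (1140, 829 and 1191 cells of osteoblast-like, tendon-like, fibroblast-like, pericyte-like and Cxcl12-abundant reticular-like clusters), the cartilage cells as a whole were higher in 6 of the 9 members tested. In this comparison 16.3% of 13468 genes were higher and 16.7% lower. Cnmd was higher by a log2 fold change of 5.01 ± 0.69, Acan by 4.43 ± 0.47, Matn3 by 4.27 ± 0.16, Hapln1 by 4.13 ± 0.54, Msmp by 3.58 ± 0.37 and Prg4 by 2.79 ± 0.58. Matn4 (0.32 ± 0.12), Cilp (0.55 ± 0.93) and Cilp2 (0.14 ± 0.49) did not pass, and Matn1 did not reach the filter on low counts. Without replicate 1 all 10 were tested and passed, with Cilp (-0.56) and Cilp2 (-0.52) then lower in cartilage cells. The share of all genes called in this fit and in those that follow is not given, so these counts are no result about the members. Without replicate 2, 5 passed and Prg4 did not (adjusted p = 0.112), and without replicate 3, 3 passed, the losses being Hapln1 (0.0506), Cnmd (0.0595) and Prg4 (0.0936).

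The genes most like each member were found over 55 sums of 1 cluster in 1 library, by Pearson's r of log2(CPM + 10) among 9245 genes. The sums share libraries and free RNA, so r is a description without a test. Hapln1 was most like Snorc (0.97), Scrg1 (0.97) and Mia (0.95), and Acan was most like Trpv4 (0.95), Scrg1 (0.94) and Snorc (0.94). Snorc encodes a chondrocyte proteoglycan and Trpv4 a calcium channel of chondrocytes. Cnmd was most like the collagen IX genes Col9a3 (0.96), Col9a2 (0.96) and Col9a1 (0.94), and Matn3 like Col9a1 (0.94). Matn1 had 4933412O06Rik (0.86), Gm17225 (0.86) and Efcab1 (0.86).

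On the lubricin side, Prg4 was most like Chrdl2 (0.86), a bone morphogenetic protein antagonist, Cytl1 (0.86) and Ndufa4l2 (0.82). Cilp was most like Htra4 (0.88), Gas1 (0.88) and Cdon (0.84), Cilp2 like Fibin (0.87), Pdgfrl (0.86) and Cdon (0.85), and Msmp like Cytl1 (0.80), Barx1 (0.77) and Frzb (0.75). Matn4 was most like Col12a1 (0.88), Edil3 (0.87) and Fmod (0.84), of which Col12a1 and Fmod encode matrix proteins of tendon. Between members, r was highest for Acan and Hapln1 (0.96), then for Matn3 and Cnmd (0.89), Hapln1 and Cnmd (0.88) and Prg4 and Cilp (0.88), and lowest for Matn3 and Prg4 (-0.23). Some pairs across the sides were also positive, such as Hapln1 and Cilp2 (0.54) and Acan and Msmp (0.50). The highest r of Matn4 with another member was with Cilp2 (0.58).

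Around aggrecan, the genes that build its chondroitin sulphate chains had more lower than higher calls against the growth plate-type state in each of the 5 other states, under TMM and RLE scaling alike. Of 21 such genes, all tested, 4 were higher and 14 lower in superficial-type cells, 4 and 12 in Slurp1-led cells, 4 and 13 in Ibsp-led cells, 4 and 11 in the Lef1 state, and 0 and 8 in cycling cells. These counts, and the TMM counts of the lists that follow, stand beside 28.1% of all genes higher and 30.7% lower in superficial-type, 22.9% and 27.8% in Slurp1-led, 22.5% and 27.3% in Ibsp-led, 25.5% and 23.8% in Lef1 and 12% and 14.9% in cycling cells. For the RLE counts of all lists such shares are not given. Of all RLE calls, 61.1% were higher in superficial-type, 55.9% in Slurp1-led, 54.8% in Ibsp-led, 66.5% in Lef1 and 64.8% in cycling cells. The chain genes had a median log2 fold change of -0.64 in superficial-type cells, where that of all genes was -0.03. With RLE scaling 5 were higher and 10 lower there, 4 and 11 in Slurp1-led, 6 and 12 in Ibsp-led, 4 and 9 in Lef1 and 2 and 4 in cycling cells, so that fewer than 11 of the 21 were lower in 3 of the 5 states, and no called gene of this or the following lists changed its direction. In superficial-type cells the sulphotransferase gene Chst3 was higher by 3.99 ± 0.16 and the initiating transferase gene Csgalnact2 by 2.16 ± 0.17 on the log2 scale, while the chain polymerase gene Chsy3 fell by 3.18 ± 0.23 and the sulphotransferase gene Chst11 by 2.80 ± 0.25. Chst15, which adds a further sulphate, fell by 4.04 ± 0.24 in Ibsp-led and by 3.50 ± 0.24 in Slurp1-led cells. Against other mesenchymal cells, 9 of the 21 were higher in cartilage cells and 3 lower, led by Xylt1 (3.47 ± 0.14), the enzyme that starts the chains, and Papss2 (3.08 ± 0.20), which makes the sulphate donor.

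Of 8 genes that make, bind or break down hyaluronan, the polymer that Hapln1 joins to aggrecan, 2 were higher and 2 lower in superficial-type cells, 5 and 2 in Slurp1-led cells, 3 and 1 in Ibsp-led cells, 4 and 1 in the Lef1 state and 0 and 4 in cycling cells under TMM. With RLE scaling these counts were 3 and 1 in superficial-type, 5 and 2 in Slurp1-led, 3 and 1 in Ibsp-led, 5 and 1 in Lef1 and 0 and 1 in cycling cells. Cd44, the hyaluronan receptor gene, fell by 3.08 ± 0.20 on the log2 scale in superficial-type, by 1.92 ± 0.20 in Ibsp-led and by 1.76 ± 0.19 in Slurp1-led cells. Tnfaip6, a hyaluronan-binding protein gene, was higher by 3.45 ± 0.20 in Slurp1-led and by 2.88 ± 0.20 in Ibsp-led cells, and Has1 was higher by 1.55 ± 0.20 in Slurp1-led cells. Against other mesenchymal cells, 2 of the 7 tested were higher in cartilage cells and 1 lower, with the synthase gene Has2 higher by 2.41 ± 0.54.

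The relatives of the members were Vcan, Ncan, Bcan, Hapln2, Hapln3, Hapln4, Matn2 and the matrilin partner gene Comp, of which all but Hapln2 and Ncan were tested. Vcan (versican, the aggrecan relative of loose connective tissue) was higher than in growth plate-type cells by 5.22 ± 0.19 on the log2 scale in superficial-type, 4.25 ± 0.21 in Slurp1-led, 3.60 ± 0.22 in Ibsp-led, 2.48 ± 0.34 in cycling and 1.86 ± 0.25 in Lef1 cells. In superficial-type cells, where Acan fell by 1.45, the sign for Vcan was thus the opposite. Matn2 fell by 2.33 ± 0.16 in superficial-type and by 1.55 ± 0.15 in Slurp1-led cells. In all, 2 relatives were higher and 1 lower in superficial-type cells, 3 and 1 in Slurp1-led, 4 and 1 in Ibsp-led, 1 and 0 in Lef1, and 2 and 0 in cycling cells. With RLE scaling 4 were higher and 1 lower in superficial-type and in Slurp1-led cells, and the other counts were the same. Against other mesenchymal cells, 1 of the 4 relatives tested was higher in cartilage cells, Hapln3 (1.45 ± 0.25).

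Among 7 genes of aggrecan-cleaving proteases and their inhibitor, of which 5 were tested, 3 were higher and 2 lower in superficial-type and in Ibsp-led cells, 1 and 3 in Slurp1-led, 2 and 2 in Lef1, and 0 and 4 in cycling cells. With RLE scaling the counts were 3 and 1 in Ibsp-led, 3 and 2 in Lef1 and 1 and 3 in cycling cells, and the same in the other states. In superficial-type cells Adamts9 (1.59 ± 0.18) and the inhibitor gene Timp3 (1.39 ± 0.23) were higher, while Adamts1 fell by 1.53 ± 0.17 and Adamts4 by 1.38 ± 0.45. Timp3 was higher by 2.83 ± 0.25 in Slurp1-led and by 2.82 ± 0.24 in Ibsp-led cells. Against other mesenchymal cells, Timp3 was higher in cartilage cells by 0.89 ± 0.12 and the 4 protease genes tested were lower. Adamts4 fell by 3.40 ± 0.65 and Adamts9 by 2.73 ± 0.26.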

How the data were processed

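Per the labels and the study's methods, the authors aligned the reads to mm10 and made raw UMI counts per gene and barcode with Cell Ranger (version 7.1.0). The deposited counts, 20985636, 79905165 and 69890252 UMIs in replicates 1, 2 and 3, hold 20307 barcodes, fewer than the cell total that the study states. Filters (at least 200 genes, at most 20% mitochondrial UMIs) removed 79, 447 and 299 barcodes. The highest Scrublet scores (0.8% per 1000 cells) removed a further 51, 362 and 837 as doublets, because the caller's own limit marked 42, 1 and 0. Counts scaled to 10000 per cell were clustered in scanpy (version 1.11.5; 2000 variable genes, 30 components, 15 neighbours, Leiden resolution 1, then 0.5 within cartilage cells). The 10 members and their relatives Vcan, Ncan, Bcan, Hapln2, Hapln3, Hapln4 and Matn2 were kept out of the variable genes, whereas Comp, also listed as a relative, was not. Clusters were named from marker lists that hold no member. Sums of at least 20 cells were tested in edgeR (version 4.0.16; TMM, filterByExpr, quasi-likelihood, library as a term) under R (version 4.3.3). SE is the size of the log2 fold change over the root of F. Intervals and limits cover counting error only.

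The members and all gene lists were chosen with earlier results of these data known. The minimum marker score (0.5), the scoring of states and the depth limit for naming a state (0.5 of the libraries' median) were set after clusters had been seen. Named were all members, up to 2 called genes per direction from each pathway list, the 3 genes most like each member (among genes at 50 CPM or more in a sum), and leading genes of clusters. Alternatives varied cell filter, doublets, variable genes, resolution, cells per sum, scaling, test, low-count filter, library term and libraries. The edgeR step was also run on simulated data in which few genes differed, which does not test scaling between states that differ in many genes. Promoters were from RefSeq, GRCm38.p6, without mouse chromosome 18, and gene coordinates from GENCODE on GRCm38. Protein sequences were not used here.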

Additional observations from a re-analysis of the deposited data

How the results depend on the processing

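Of 747 refitted log2 fold changes of members, 664 kept their direction and their side of an adjusted p of 0.05, 25 came to pass it, 54 no longer passed it and 4 reversed. The members passing in the superficial-type state (10) stayed at 9 to 10 under every alternative run. Leaving out a replicate gave 2 to 10 members in the Lef1 state (6 with all libraries), 0 to 8 in cycling cells (5) and 3 to 10 for cartilage against other mesenchymal cells (6). Without the replicate block, the Lef1 state had 3 members passing. The share of all genes called in this and the other refits is not given, so these counts are no result about the members. With the members and relatives among the variable genes, 6 members instead of 10 passed in the state nearest to the hypertrophic list. Cilp (-1.41) and Msmp (-0.23) reversed there. Between cartilage and other mesenchymal cells, Cilp ranged from -0.56 to 1.39 and Cilp2 from -0.52 to 0.54 when a replicate was left out, both lowest, and reversed, without replicate 1. The causes were not tested. Of 460 levels, 44 moved by more than the spread between libraries. By ratio, the largest moves came with the members among the variable genes. In alternatives that formed clusters anew, states were matched by the marker list nearest to them, so the same name can cover other cells. With the members among the variable genes, Msmp went from 23367 to 1501 CPM under the superficial-type name. It went from 1002 to 20651 CPM under the Wif1, Cytl1 and Myoc list, which was nearest to the Slurp1-led state in the main run. Under the hypertrophic list, nearest to the Ibsp-led state in the main run, Msmp went from 721 to 73.1, Cilp from 249 to 25.3 and Prg4 from 5516 to 783 CPM. Prg4 in growth plate-type cells went from 275 to 1926 CPM without doublet removal. Under the Wif1, Cytl1 and Myoc list, Prg4 was at 94479 CPM in the main run and at 21798 without a cell filter. It was at 17555 with the members among the variable genes and at 31740 at resolution 1. At resolution 1 the cluster led by Slurp1 was nearest to another list. Its Prg4 was at 105510 and 112279 CPM in replicates 2 and 3, so the lower value there does not describe Slurp1-led cells. Shares of cells moved in 57 of 60 cases when cells were not thinned. Without a cell filter no state was named by the hypertrophic list, and without doublet removal none by the Wif1, Cytl1 and Myoc list. Whether a cluster led by Ibsp or Slurp1 was present there is not given. The alternative with the shallow cluster in the growth plate-type state was chosen after seeing the data and changed no call. Depth limits Matn1 most, at 1904 UMIs.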
